A study of Homo sapiens with 8 samples.

Results

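The antigen receptor of T cells was followed through 10 genes: the CD3 chains CD3D, CD3E, CD3G and CD247, the receptor beta constant gene TRBC1, the coreceptors CD4, CD8A and CD8B, the adhesion receptor CD2 and the surface phosphatase PTPRC. Every probe set that the platform annotation gives to 1 of these symbols alone was taken, which gave 21 of the 54675 probe sets. Each of the 10 genes had at least 1 probe set that passed the filter on dim values, which asked for at least 2 arrays with a value over their array's median, and 18 of the 21 probe sets passed it. These 10 are among 19775 genes with a probe set of their own. The 3 dim probe sets, 1 of CD4 and 2 of CD8B, were not tested.

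Gene expression was measured on 8 Affymetrix arrays of ALL-SIL, an established human T-cell acute lymphoblastic leukemia line that carries the TLX1 homeobox oncogene, in 2 experiments with 2 groups of 2 arrays each. In the first experiment, ALL-SIL cells transduced with a TCRα/β-GFP vector were either left alone or co-cultured for 48 h with OP9-DL1 cells, murine stroma engineered to display Notch ligand DL1; the labels call the co-cultured cells TCR-activated. In the second, ALL-SIL cells received a hairpin against TLX1 (sh-TLX) or the shRNA-pLKO.1-puro control vector and were selected with puromycin. RNA was taken before the onset of apoptosis, per the labels' protocols. All arrays come from 1 cell line, and the labels do not say that the replicates are separate cultures. The p-values thus reflect only how far the 2 arrays of a group spread, and that spread may be technical. In the model of all 4 groups this spread is pooled over both experiments. The protocols describe both a mouse TCR-HY vector and a vector made from the TCR of the Jurkat line, and which of them these cells carry is not given in the sources used here. No ligand of the receptor is named in the labels, so contact with stroma, Notch ligand and receptor signalling cannot be told apart in this design. All 4 groups carry a lentiviral vector.

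The T cell receptor is a pair of variable chains, most often alpha and beta, that recognises a peptide on an MHC molecule but has no signalling tail of its own. The CD3 chains and the zeta chain CD247 assemble with it, are needed for its transport to the cell surface, and carry the tyrosine motifs that LCK phosphorylates and ZAP70 binds. CD4 and CD8 bind MHC and bring LCK to the receptor, CD2 binds CD58 on other cells, and PTPRC (CD45) removes an inhibitory phosphate from LCK. Many T-cell leukemias that express TLX1 are arrested at a cortical thymocyte stage, at which receptor genes are being rearranged.

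Values are log2 RMA values, on which a difference of 1 is a doubling, and a level is compared only with the level of the same probe set in other arrays. Array medians lay between 5.29 and 5.30. The median SD within a group was 0.07 without co-culture, 0.05 with co-culture, 0.17 with the control hairpin and 0.11 with the TLX1 hairpin. The experiments also differed in RNA: the 3′ minus 5′ difference of the actin control probe sets lay between 2.30 and 2.71 in the first and between 0.57 and 0.83 in the second. Vector, RNA and experiment cannot be told apart, so levels were not tested between the experiments, and only the changes within each were compared. TLX1 itself (207179_at) read 8.66 and 8.27 with the control hairpin and 7.98 and 7.88 with the TLX1 hairpin, a change of -0.53 (SE 0.15, limma adjusted p = 0.401) whose arrays did not overlap. In the co-culture comparison, 6 of 16 tested chromosome Y genes were lower past the threshold, by a median of -4.37, against 0.206% of all genes. Whether the cells of these 2 groups differ in more than the labels state was not tested. Co-culture and any other difference between the cell populations, such as one of subclone, cannot be told apart. The part of this in the member values was not tested.

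Few of these genes differed past the threshold between the co-cultured arrays and those without co-culture. A TRBC1 probe set rose 2.01-fold, while CD2 read 1.62-fold and PTPRC 1.53-fold lower without passing the test, and the CD3 chains and coreceptors lay within 0.23 of no difference. Of the 18 tested member probe sets, 1 passed (limma, Benjamini-Hochberg adjusted p under 0.05 over 30816 probe sets), against 0.490% of all probe sets tested (151; 0.276% called higher). An unadjusted p under 0.05 was reached by 9, of which 5 are the PTPRC probe sets, and by 6.71% of all probe sets. These 5 hold the same profile over the arrays up to a constant, with a largest difference of 8.8e-06, so they count as 1 measurement and leave 14 in all. The other members showed no such repeat.

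**Figure D1:**
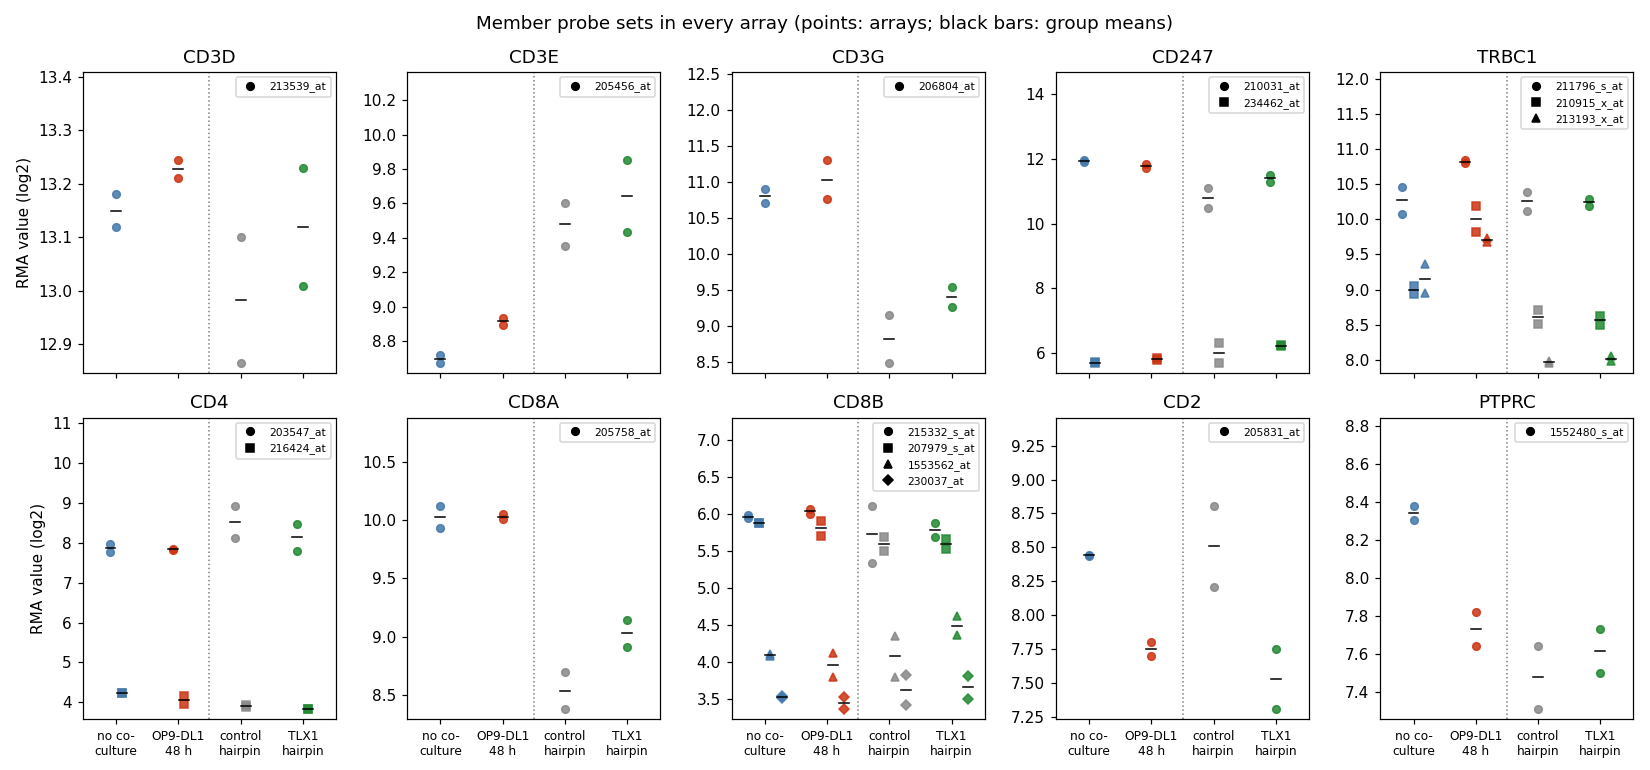
RMA value (log2) of each probe set of the 10 genes in every array; points are arrays, black bars group means, marker shapes probe sets, and each panel has its own axis. PTPRC is drawn by 1 of its 5 equal profiles. The TRBC1 points with co-culture (9.68 to 10.84) lie above those without it for the same probe set, and CD2 and PTPRC lie below.

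TRBC1 encodes a constant region of the receptor beta chain and was read by 3 probe sets. On 210915_x_at the arrays without co-culture read 8.94 and 9.05 and the co-cultured arrays 10.18 and 9.81. The groups did not overlap. This probe set rose by 1.01 (SE 0.15, 95% interval 0.65 to 1.36, limma adjusted p = 0.0421). On 211796_s_at the values were 10.08 and 10.45 without and 10.80 and 10.84 with co-culture, a difference of 0.55 (SE 0.16, limma adjusted p = 0.389). On 213193_x_at they were 8.95 and 9.36 without and 9.73 and 9.68 with it, a difference of 0.55 (SE 0.15, limma adjusted p = 0.336). All 3 probe sets were thus higher in both co-cultured arrays, and 1 of the 3 passed the test. TRBC1 has a near-identical copy, TRBC2, and these cells carry a transduced receptor, so what these probes read was not tested. The call on 210915_x_at was lost in the fit of the 2 groups alone (adjusted p = 0.0502), and on leaving out either array without co-culture (0.370 and 0.315), either co-cultured array (0.416 and 0.0897) or either TLX1 hairpin array (0.0992 each).

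The chains that assemble around the receptor showed no difference past the threshold with co-culture. CD3D (213539_at), the delta chain, read 13.18 and 13.12 without and 13.21 and 13.24 with co-culture, a difference of 0.08 (SE 0.13, 95% interval -0.23 to 0.38). CD3E (205456_at), the epsilon chain, read 8.72 and 8.67 without and 8.93 and 8.89 with it, a difference of 0.22 (SE 0.16, interval -0.15 to 0.59, limma adjusted p = 0.959). Both were a little higher in each co-cultured array. CD3G (206804_at), the gamma chain, read 10.70 and 10.90 without and 11.30 and 10.75 with co-culture, so its arrays overlapped, and its difference was 0.23 (SE 0.25, interval -0.36 to 0.82). CD247 (210031_at), the zeta chain with the most signalling motifs, read 11.90 and 11.96 without and 11.72 and 11.84 with co-culture, a difference of -0.15 (SE 0.20, interval -0.61 to 0.31). Its other probe set (234462_at) lay between 5.69 and 5.86 in this experiment, near the array median, where background signal limits it. It was higher with co-culture, by 0.11, so the 2 probe sets of CD247 did not share a direction.

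The coreceptors lay closest to no difference. CD8A (205758_at), which pairs with itself or with CD8B, read 10.12 and 9.93 without and 10.01 and 10.05 with co-culture, a difference of 0.00 (SE 0.15, 95% interval -0.34 to 0.35). CD4 (203547_at) read 7.95 and 7.78 without and 7.83 and 7.84 with it, a difference of -0.03. Both genes' arrays overlapped between the groups. The tested CD8B probe sets lay between 5.70 and 6.08 in this experiment, near the array median, with differences of 0.07 (215332_s_at) and -0.07 (207979_s_at). The dim CD4 probe set (216424_at) lay between 3.97 and 4.24, and the dim CD8B probe sets between 3.37 and 4.12.

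CD2 and PTPRC had the largest differences downward. CD2 (205831_at) read 8.44 on both arrays without co-culture and 7.70 and 7.80 on the co-cultured arrays. The groups did not overlap, with a difference of -0.69 (SE 0.22, 95% interval -1.19 to -0.19, unadjusted p = 0.0128, limma adjusted p = 0.467). PTPRC (1552480_s_at) read 8.38 and 8.30 without and 7.64 and 7.82 with co-culture, a difference of -0.61 (SE 0.15, interval -0.96 to -0.26, limma adjusted p = 0.280). The other PTPRC probe sets read the same differences at levels up to 0.20 lower. In the fit of the 2 groups alone, in which the arrays of the other experiment do not enter the spread, CD2 passed (limma adjusted p = 0.0258) against 1.41% of all probe sets (0.802% called lower), and PTPRC did not (0.0555). With array weights CD2 (0.00993), PTPRC (0.00936) and all 3 TRBC1 probe sets (0.00253 to 0.0323) passed, in a fit that called 1371 probe sets in all.

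**Figure D2:**
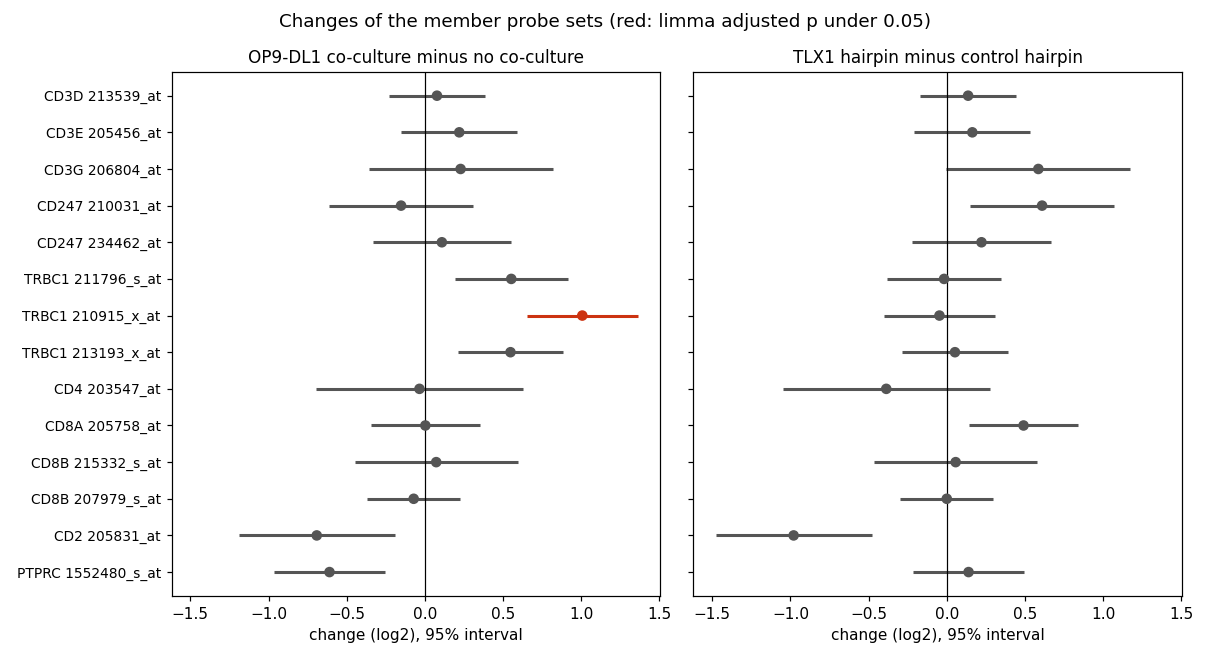
Difference between groups (log2, horizontal axis) with its 95% interval for the 14 separate measurements, co-culture minus none on the left and TLX1 hairpin minus control hairpin on the right. TRBC1 210915_x_at, at 1.01, is the 1 drawn in red as past the threshold; CD2 lies at -0.69 on the left and -0.98 on the right.

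Counted by overlap alone, the arrays of the groups were apart for 10 of the 14 measurements with co-culture, 7 higher and 3 lower, while 52.3% of all probe sets were apart (27.1% higher and 25.2% lower). A separation without overlap was thus common on these arrays. The 14 are probe sets and not genes: TRBC1 gives 3 of the 7 higher, and CD247 and CD8B were each read by 2. The median difference of the 14 measurements was 0.07, that of all probe sets tested 0.0052 and that of all genes 0.02.

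With the TLX1 hairpin, 0 of the 18 member probe sets passed the threshold (limma), against 0.0649% of all probe sets (20; 0.0487% called higher and 0.0162% lower), and 3 had an unadjusted p under 0.05, against 8.22% of all. These 3 were CD2, read 1.97-fold lower, and CD8A and CD247, both read higher. CD2 read 8.21 and 8.81 with the control hairpin and 7.31 and 7.75 with the TLX1 hairpin. The groups did not overlap, and the difference was -0.98 (SE 0.22, 95% interval -1.48 to -0.48, limma adjusted p = 0.286). CD8A read 8.38 and 8.70 with the control and 9.14 and 8.91 with the TLX1 hairpin, a difference of 0.49 (SE 0.15, interval 0.14 to 0.84, limma adjusted p = 0.456).

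Among the CD3 chains, CD247 (210031_at) read 11.10 and 10.47 with the control and 11.50 and 11.29 with the TLX1 hairpin, a difference of 0.61 (SE 0.20, 95% interval 0.15 to 1.07, limma adjusted p = 0.476). CD3G read 9.15 and 8.48 with the control and 9.53 and 9.27 with the TLX1 hairpin, a difference of 0.59 (SE 0.25, limma adjusted p = 0.608). Both were higher in each TLX1 hairpin array than in either control. CD3D and CD3E arrays overlapped, with differences of 0.14 and 0.16. The arrays of the other CD247 probe set (234462_at) also overlapped, with a difference of 0.22. On leaving out 1 array, the differences ranged from 0.29 to 0.92 for CD247 210031_at and from 0.25 to 0.92 for CD3G. For CD2 they ranged from -1.28 to -0.68. Leaving out an array of this experiment sets 1 array of a group against 2 of the other.

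TRBC1 differed by -0.02, -0.05 and 0.05 on its 3 probe sets, and PTPRC by 0.14 (limma adjusted p = 0.861). CD4 (203547_at) read 8.12 and 8.92 with the control and 7.80 and 8.47 with the TLX1 hairpin, a difference of -0.39 (limma adjusted p = 0.763) with overlapping arrays. The tested CD8B probe sets differed by 0.06 (215332_s_at) and by less than 0.01 (207979_s_at). The arrays of the groups were apart for 5 of the 14 measurements, 4 higher and 1 lower, against 28.9% of all probe sets (14.2% higher and 14.6% lower).

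CD2 was the 1 tested measurement lower in both experiments without overlap, which held for 3.81% of all probe sets, and it was singled out after its values were seen. Its 2 differences differed by 0.29 (95% interval -0.42 to 0.99, limma adjusted p = 0.893). The difference between the experiments' changes passed the threshold for 0 of the 18 probe sets (limma), against 0.334% of all (0.188% upward). An unadjusted p under 0.05 was reached by 9, or 5 of 14 with PTPRC counted once, and by 7.83% of all probe sets. For TRBC1 210915_x_at it was 1.05 (interval 0.55 to 1.55, limma adjusted p = 0.175), for CD247 210031_at -0.76 (-1.41 to -0.11, adjusted p = 0.561) and for PTPRC -0.75 (-1.25 to -0.25, adjusted p = 0.408).

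The level order of the 4 groups differed between members. CD3G was lowest with the control hairpin (8.48 and 9.15) and its 2 highest groups, both of the first experiment, overlapped. CD8A had the same order, with its first-experiment arrays (9.93 to 10.12) above all hairpin arrays (8.38 to 9.14). CD3E ran the other way: its hairpin arrays (9.35 to 9.85) lay above all arrays of the first experiment (8.67 to 8.93). As a description, the mean of the first experiment minus that of the second was 1.80 for CD3G, 1.24 for CD8A and -0.76 for CD3E. It was 0.76 on CD247 210031_at but -0.36 on CD247 234462_at, which lay between 5.69 and 6.33 on all arrays. On TRBC1 213193_x_at, 210915_x_at and 211796_s_at it was 1.44, 0.91 and 0.30. The 4 arrays of an experiment lay wholly above or below those of the other for 7 of the 14 measurements, against 59.7% of all probe sets.

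**Figure D3:**
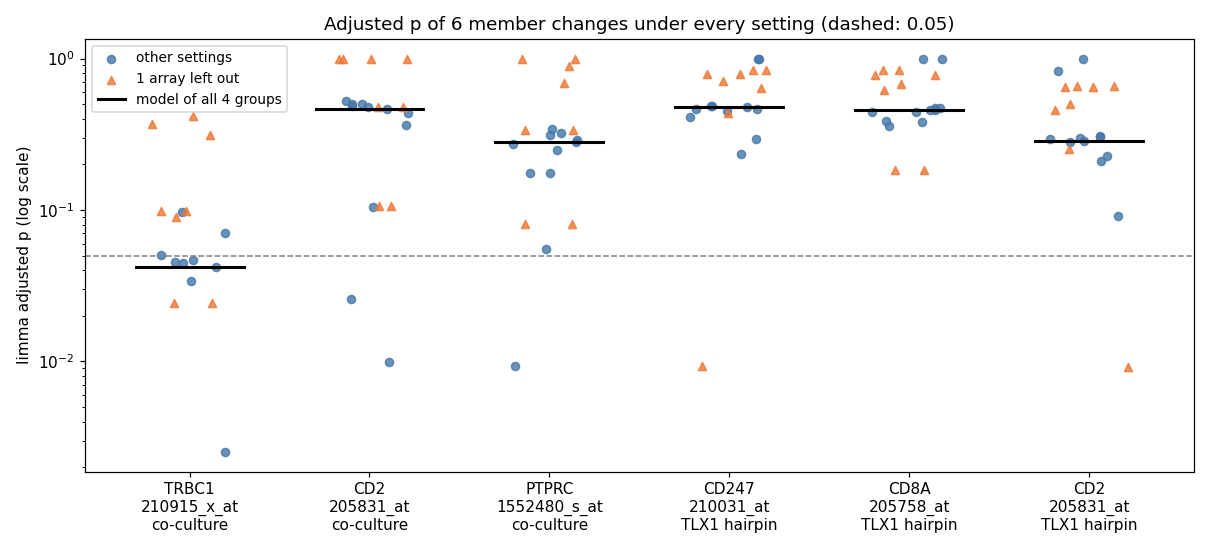
limma adjusted p (log axis) of 6 member differences under every processing setting; circles are settings, triangles leave out 1 array, the bar is the model of all 4 groups and the dashed line 0.05. TRBC1 lies at 0.0421 in that model and has circles and triangles on both sides of the line.

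Other genes of the pathway were grouped in 5 lists of 95 genes, of which 77 were tested. With co-culture 0 of the 77 passed (limma, against 0.565% of all genes) and 4 had an unadjusted p under 0.05 (6.88% of all genes). With the TLX1 hairpin 2 passed, against 0.0611% of all genes (0.0458% higher and 0.0153% lower), and 17 had an unadjusted p under 0.05 (8.51% of all genes). By list, from receptor chains to transcription factors as ordered here, unadjusted p under 0.05 was reached by 0, 2, 0, 1 and 1 genes with co-culture and by 0, 3, 8, 3 and 3 with the hairpin. List medians lay between -0.09 and -0.01 with co-culture, where the median of all genes was 0.02, and between -0.20 and 0.20 with the TLX1 hairpin, where it was 0.00.

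Of the other receptor chains, 3 of 8 had a tested probe set of their own and 0 of 3 passed in either comparison. TARP (217381_s_at), a transcript of the gamma locus, differed by 0.21 with co-culture. TRAT1, a receptor-associated membrane adaptor, differed by -0.13, and PTCRA, the surrogate alpha chain of immature thymocytes, by -0.01. Another TARP probe set (216298_at) differed by 0.04. The probe sets shared by TARP, TRGV9 and TRGC2 read between 12.44 and 13.27 on all arrays, and differed by 0.08 to 0.10. Of the proximal kinases and phosphatases, 0 of 12 tested passed in either. PTPN6 (SHP-1), a phosphatase that limits receptor signalling, read 7.78 on both arrays without and 8.71 and 8.74 with co-culture, a difference of 0.94 (SE 0.18, limma adjusted p = 0.113, and 0.00721 in the fit of the 2 groups alone). With the TLX1 hairpin the kinases ZAP70 and LCK read 0.39 and 0.34 higher (limma adjusted p = 0.452 and 0.519).

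Of the adaptors and effectors, 0 of 25 passed with co-culture, and SLA2 fell with the TLX1 hairpin. SLA2, an adaptor that dampens receptor signalling, read 8.66 and 8.93 with the control and 7.50 and 7.29 with the TLX1 hairpin, a difference of -1.40 (SE 0.13, limma adjusted p = 0.0224). This call was lost in the fit of the 2 groups alone (0.882) and on leaving out any 1 of the 6 arrays outside the control hairpin group (up to 0.162), and the mean of the gene's probe sets differed by -0.34 (0.570). Its relative SLA differed by 0.84 (0.134), and PRKCQ, the kinase that links the receptor to NF-kB, by 0.56 (0.212). Of the other T cell surface genes 0 of 20 passed in either comparison. CD44, an adhesion receptor, read 8.71 and 8.68 without and 7.96 and 8.04 with co-culture, a difference of -0.69 (SE 0.13, limma adjusted p = 0.101, and 0.0228 in the fit of the 2 groups alone); other CD44 probe sets repeat this profile up to a constant. With the TLX1 hairpin CD96 differed by -0.94 (0.0837) and CD52 by 1.06 (0.199).

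Of the transcription factors that act on receptor and coreceptor genes, 0 of 17 passed with co-culture and ID2 rose with the TLX1 hairpin. ID2, an inhibitor of E proteins, read 8.44 and 8.02 with the control and 10.67 and 10.28 with the TLX1 hairpin, a difference of 2.25 (SE 0.24, limma adjusted p = 0.0354). It did not pass in the fit of the 2 groups alone (0.495) or on leaving out any 1 array except control hairpin replicate 1 (up to 0.239). SATB1, a chromatin organiser of thymocytes, differed by -0.39 with co-culture (0.587).

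**Figure D4:**
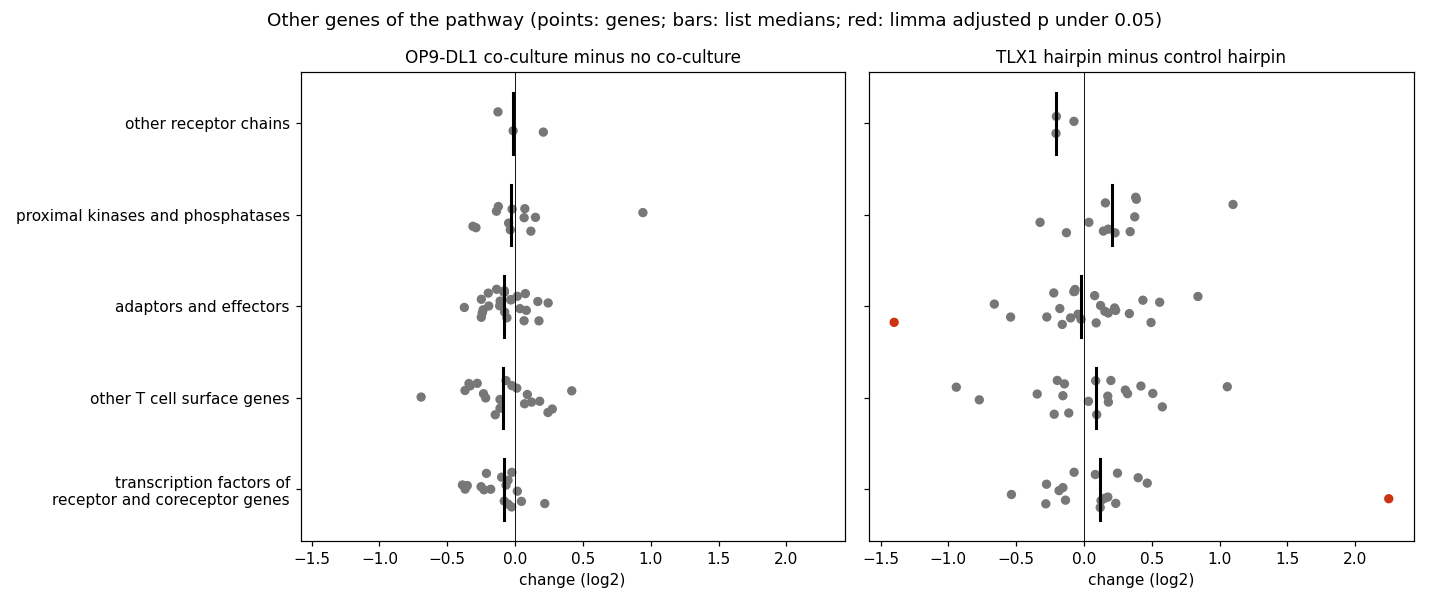
Difference (log2, horizontal axis) of each tested gene of the 5 pathway lists, co-culture on the left and TLX1 hairpin on the right; points are genes, bars list medians, red points past the threshold. Red points appear on the right only, SLA2 at -1.40 and ID2 at 2.25.

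Markers of other cell types were set beside these values. Of 7 tested myeloid markers, 3 rose with co-culture, against 0.359% of all genes. They were PRTN3 by 3.33 (limma adjusted p = 1.20e-04), CEBPA by 1.05 (0.00646) and CEBPE by 0.81 (0.0465). PRTN3 read 3.83 and 3.42 without co-culture, 3.24 to 3.58 in the hairpin arrays and a mean of 6.95 with co-culture. Only the co-cultured arrays took PRTN3 past the filter on dim values. CEBPE lay below the array median without co-culture (mean 4.68) and above it with co-culture (mean 5.49). The count of 3 of 7 thus depends in part on a filter that the co-cultured arrays themselves helped to pass. MPO, the myeloperoxidase of granules, read 8.69 on both arrays without and 7.82 and 8.13 with co-culture, a difference of -0.72 (limma adjusted p = 0.180), and it is the fourth of the list with an unadjusted p under 0.05. The median difference of the 7 was 0.12. The mean of that list was 5.68 to 5.71 without and 6.35 to 6.37 with co-culture, and 5.37 to 5.58 in the hairpin arrays; over the 6 genes other than PRTN3 it was 6.03 to 6.06 without and 6.26 to 6.27 with co-culture, while ELANE, AZU1, CD14, LYZ and SPI1 were dim. Of 11 tested stromal markers 0 passed in either comparison (1 and 0 at an unadjusted p under 0.05). Their mean was 6.28 to 6.63 without and 6.14 to 6.62 with co-culture, and 5.36 to 5.49 in the hairpin arrays. It was thus higher in the first experiment with and without co-culture, and this difference between the experiments was not tested. The OP9-DL1 stroma is murine and these probe sets are annotated to human genes, so they cannot decide whether stroma was carried over. Of the 4 B cell and 5 NK cell markers tested 0 passed in either (0 and 0 at an unadjusted p under 0.05 with co-culture, 1 and 1 with the hairpin), and none of the erythroid ones was above the filter. The part of these markers in the member values was not tested. In bulk RNA, fewer cells of a type and less RNA per cell cannot be told apart.

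The promoters of CD2 and PTPRC, the members with the largest differences downward in the co-culture comparison, are shown with that of CD3D, the chain with the smallest difference, for the bases before each start. RefSeq windows (GRCh38.p14) were found for 5 of the 10 members. Capitals mark TAAT on either strand (TAAT or ATTA), the core that homeodomain factors such as TLX1 can bind. CD2 lies at chr1:116754180-116754429 on the plus strand, PTPRC at chr1:198638790-198639039 on the plus strand and CD3D at chr11:118342706-118342955 on the minus strand.
CD2: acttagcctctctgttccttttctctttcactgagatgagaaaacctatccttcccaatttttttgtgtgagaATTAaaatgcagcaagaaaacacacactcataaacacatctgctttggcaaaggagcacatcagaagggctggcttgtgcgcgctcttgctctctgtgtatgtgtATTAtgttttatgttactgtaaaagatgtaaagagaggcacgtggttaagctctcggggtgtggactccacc
PTPRC: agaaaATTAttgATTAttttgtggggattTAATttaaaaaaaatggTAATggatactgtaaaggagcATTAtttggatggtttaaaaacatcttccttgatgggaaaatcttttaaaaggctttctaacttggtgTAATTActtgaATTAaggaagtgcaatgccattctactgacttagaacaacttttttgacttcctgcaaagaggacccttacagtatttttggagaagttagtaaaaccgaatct
CD3D: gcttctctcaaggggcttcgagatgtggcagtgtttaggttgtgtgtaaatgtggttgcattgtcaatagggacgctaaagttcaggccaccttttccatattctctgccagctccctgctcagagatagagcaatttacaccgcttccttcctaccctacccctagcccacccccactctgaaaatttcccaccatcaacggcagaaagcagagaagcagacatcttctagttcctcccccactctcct
TAAT was found 8 times in the PTPRC window, 2 times in that of CD2 and 0 times in that of CD3D. The PTPRC count takes the overlapping letters TAATTA as 2 matches. Of the members not shown, CD247 held 2 matches and each of the 4 CD8A windows 0. Of all 35116 windows of 250 bases, 47.4% hold at least 1 match, and the share with 8 was not counted. A link between these counts and the member differences was not tested. The ETS core GGAA was found 4, 2 and 5 times in PTPRC, CD2 and CD3D, in 92.7% of all windows. A match describes these letters and is no sign of binding.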

How the data were processed

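The authors deposited log2 probe set values of all 8 arrays, made with RMA in affy under R 2.9.0, per the submitters' processing notes; other settings are not given in the sources used here. Groups came from the sample titles. Of 54675 probe sets, 41097 have 1 symbol, 1801 several and 11777 none, and genes were named from the first kind only; 41043 matched RefSeq's gene table. Probe sets over the array median in 2 or more of the 8 arrays were kept (30816, for 13102 genes). limma 3.58.1 in R 4.3.3 fitted a mean for each of 4 groups (4 residual degrees of freedom), with Benjamini-Hochberg adjustment and a threshold of 0.05. Pathway and marker genes used the kept probe set with the highest mean. From each list, genes past the threshold and up to 3 with the smallest p in a comparison could be named. Members and lists were chosen with earlier results of these data known. The number of arrays limits precision. Alternatives covered filters, samples, weights, probe set summary, scaling, replicates and a replicate block; counting repeated profiles once was chosen after seeing the data. The fit was tested on simulated data.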

Additional observations from a re-analysis of the deposited data

Results flagged for a closer look

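The changes of the 2 experiments differed past the threshold (limma adjusted p under 0.05) for 2 of the 77 pathway genes tested, against 0.382% of all genes. SLA2 (232234_at) differed by 1.48; it fell with the TLX1 hairpin. ID2 (201565_s_at) differed by -2.31; it rose with the TLX1 hairpin.

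CD247 (210031_at) was lower in both co-cultured arrays and higher in both TLX1 hairpin arrays than in their controls. The gene's other probe set (234462_at) lay between 5.69 and 6.33 on all arrays, where background signal limits it. It was higher in both co-cultured arrays, by 0.11, and its hairpin arrays overlapped, with a difference of 0.22. Groups were apart for 52.3% of all probe sets with co-culture and for 28.9% with the TLX1 hairpin. The difference of the 2 changes of 210031_at was -0.762, with a limma adjusted p of 0.561, which does not pass the threshold. On leaving out 1 array this difference ranged from -1.08 to -0.45.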

How the results depend on the processing

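The 1 member called with co-culture became 0 under the stricter filter, 1 probe set per gene, averaged probe sets of a gene and the replicate block, and 9 with array weights, 5 of them repeats of PTPRC; leaving out 1 array gave 0 to 1. Over all probe sets the 151 calls became 58 (stricter filter), 436 (only the 2 groups), 1371 (array weights) and 81 (1 probe set per gene), and 61 to 316 without 1 array. With the TLX1 hairpin, 0 members became 0 to 3 without 1 array. The 20 calls over all probe sets became 0 (only the 2 groups, and array weights), 12 (1 probe set per gene) and 10 (mean), and 0 to 3482 without 1 array. For the difference of the changes, 0 members became 0 to 1 and 103 calls became 60 (stricter filter), 50 (1 probe set per gene), 62 (mean) and 35 to 1533 without 1 array. The cause was not tested. Replicate numbers are shared between groups, but same-numbered arrays correlated at -0.06 and 0.34 in the experiments; with the replicate block the calls over all probe sets were 159, 15 and 110, and TRBC1 210915_x_at had an adjusted p of 0.0970.

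Some directions turned on leaving out 1 array. With co-culture the ranges were -0.0444 to 0.50 for CD3G, -0.12 to 0.0537 for CD4, -0.092 to 0.10 for CD8A, -0.18 to 0.0326 for CD8B 207979_s_at and -0.14 to 0.11 for PTCRA. With the TLX1 hairpin they were -0.0452 to 0.37 for CD3E, -0.0944 to 0.54 for CD247 234462_at, -0.15 to 0.12 for TRBC1 211796_s_at, -0.14 to 0.0477 for TRBC1 210915_x_at and -0.79 to 0.0108 for CD4. They were -0.33 to 0.44 for CD8B 215332_s_at, -0.0949 to 0.0948 for CD8B 207979_s_at (5e-04 with re-centred arrays), -0.0264 to 0.31 for PTPRC, -0.43 to 0.0243 for PTCRA and -0.70 to 0.56 for TRAT1. The difference of the CD2 changes ranged from -0.0101 to 0.59. Of the single results, 1129 kept direction and side of the threshold, 28 lost the call, 25 gained it and 24 turned. Probe sets near the array median, such as those of CD8B and CD247 234462_at, are limited by background signal.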

Other observations

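Other receptor segments were read on these arrays, and the following were singled out after their values were seen. A probe set of TRDV3, a variable segment of the receptor delta chain (216191_s_at), lay between 12.19 and 12.64 on all 8 arrays, while the other TRDV3 probe set was dim. TRAV12-2, an alpha variable segment (211667_x_at), read 5.52 to 5.65 in the co-culture experiment and 4.52 to 4.80 in the hairpin experiment. The probe sets of TRAV8-3, TRBV16 and TRBV27 were dim.

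As a description over 8 arrays that share 2 experiments, after each experiment's mean was subtracted, the genes whose values were most like the mean of the CD3 chains were PGM2, TSPAN17 and SLC39A6, each with r = 0.98 among 13082 genes. That mean does not stand for a profile shared by all 4 chains: CD3D, CD3G and CD247 correlated with each other at 0.75 to 0.76, but CD3E with them at -0.29, 0.03 and -0.17. For PTPRC they were GPRC5C, PWWP2A and PELI2 (r between 0.97 and 0.98). For TRBC1, taken by 211796_s_at and not by the called 210915_x_at, they were CENPA, BASP1 and MUTYH (r between 0.96 and 0.98).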
